A study of Sardinops sagax and Scomber japonicus with 20 samples.

Results

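Fibrinogen is the soluble plasma protein that thrombin turns into fibrin, the mesh of a blood clot. It is built in hepatocytes from pairs of alpha, beta and gamma chains, which the genes FGA, FGB and FGG encode. The chains are joined by disulfide bonds in the endoplasmic reticulum (ER) before secretion, and in mammals their transcription rises together in the acute-phase response to interleukin-6. The genes described here are the 3 whose human symbol in the deposited tables is FGA, FGB or FGG, out of 9374 symbols in the tables of both species. Each symbol had 1 row per table. The sardine rows are the zebrafish RefSeq records NM_001002039.1 (FGA), NM_212774.1 (FGB) and NM_213054.1 (FGG). The mackerel rows are the fugu gene models ENSTRUG00000003837 (FGA), ENSTRUG00000002645 (FGB) and ENSTRUG00000006100 (FGG).

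Liver RNA was sequenced from 20 adult male fish, which the labels give as Pacific sardine (Sardinops sagax) and chub mackerel (Scomber japonicus). In each species 5 males spent 5 h at 12.5 pM Ethinylestradiol (EE2), a synthetic estrogen used in birth control, and 5 males were unexposed controls. The fish came from a live bait supplier, were fed pellets, and the labels name no other treatment. Each species has 1 table, the authors' DESeq2 comparison of its 2 groups, and no values per fish were at hand, so the spread between fish cannot be given.

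Which group was divided by which is not recorded. The groups are therefore called the positive side, which is higher when the log2 fold change is above 0, and the negative side, and no direction is assigned to EE2. The level of a side is its normalized count, worked out from the authors' mean normalized count and either the recovered whole reads (mackerel) or the fold change (sardine). A call means an adjusted p under 0.05 by the authors' DESeq2 test. In mackerel each mean was made of 1 whole number per side, and in sardine of 5 for the positive and 1 for the negative side. The depth of each library is therefore unknown. A side made of 1 whole number shows no spread between its fish. The authors' p-values thus cannot be taken to hold that spread in mackerel, or for the negative side of sardine. Mackerel had 376343 such reads on the positive side, against 332486 on the negative side, while about 125299 were estimated for the negative side of sardine. Transcript lengths were not at hand, so counts of different chains are compared only as shares of the reads, not per length.

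Both tables held hepatocyte genes, as the liver label implies. In sardine the groups also differed in markers of other tissue. Hepatocyte markers (19 rows, including prothrombin, transferrin and AMBP) summed to a level of 6795 on the positive side, against 1116 on the negative side. Of these, 16 were called on the positive side, against 0 on the negative side, while 1 was at 0 on the positive side, against 7 on the negative side. Muscle markers (36 rows, including cardiac troponin TNNT2 and creatine kinase CKM) summed to 38.9 on the positive side, against 9996 on the negative side, with 3 rows called on the positive side, against 27 on the negative side. Of the muscle rows, 2 were at 0 on the positive side, against 6 on the negative side. Over all sardine rows with an adjusted p, 30.5% were called on the positive side, against 16.1% on the negative side. The other marker lists were lower in count: endothelial and stellate markers summed to 9.83 on the positive side, against 97.0 on the negative side, leukocyte markers to 16.2 against 67.1, erythrocyte and thrombocyte markers to 15.6 against 59.3, and bile duct markers to 29.0 against 31.1. The part of any marker list in the fibrinogen values was not tested. The muscle markers held 0.018% of all sardine counts on the positive side, against 9.01% on the negative side, and which tissue they came from was not tested. In these libraries, a different share of a cell type or tissue and a different amount of RNA per cell cannot be told apart.

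In sardine all 3 chains were called on the positive side. FGG and FGB were severalfold higher there, and FGA was read on the positive side only. The call was common in this table: 30.5% of all rows with an adjusted p were called on the positive side, and 58.9% of those with a mean normalized count of at least 100.

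FGA, whose chain carries the fibrinopeptide A that thrombin cuts off first, had a level of 413 on the positive side, against 0 on the negative side. Against a floor of 3 counts over the negative side, the positive-side level was at least 156-fold higher. The authors' deposited table gave FGA an adjusted p of 8.1e-09, and the fitted log2 fold change of 12.36 ± 1.91 (SE) that goes with it depends on how 0 reads are handled and is no measure of size. With the fold change of FGB, 133 negative-side reads of FGA would have been counted, and with that of FGG 89.9. Of the 91 curated records with a mean of 100 to 400, 9, or 9.89%, were at 0 on the negative side, FGA included. Among predicted records with a mean of at least 100 that share was 92.6%. Why rows were at 0 there was not tested, and the floor covers counting error only.

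FGB, the beta chain gene, had a level of 7735 on the positive side, against 2209 on the negative side, with an estimated 2495 reads behind the negative-side level. The authors' deposited table gave FGB a log2 fold change of 1.81 ± 0.24 (SE), a 3.50-fold difference, with an adjusted p of 4.69e-12. The 95% interval from that SE ran from 1.34 to 2.27.

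FGG, the gamma chain gene, had a level of 28794 on the positive side, against 5547 on the negative side, an estimated 6265 reads. Its log2 fold change in the authors' deposited table was 2.38 ± 0.10 (SE), a 5.19-fold difference, with an adjusted p of 6.86e-124 and an interval of 2.18 to 2.57. FGG had the smallest SE of all sardine rows. Since the sardine negative side was made of 1 whole number, the SEs, intervals and p-values of the sardine chains cannot be taken to hold spread between its fish. The fold of FGG exceeded that of FGB by 0.57 ± 0.26 on the log2 scale (combined SE; interval 0.06 to 1.07). That SE treats the chains as independent, although they share their libraries.

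**Figure D1:**
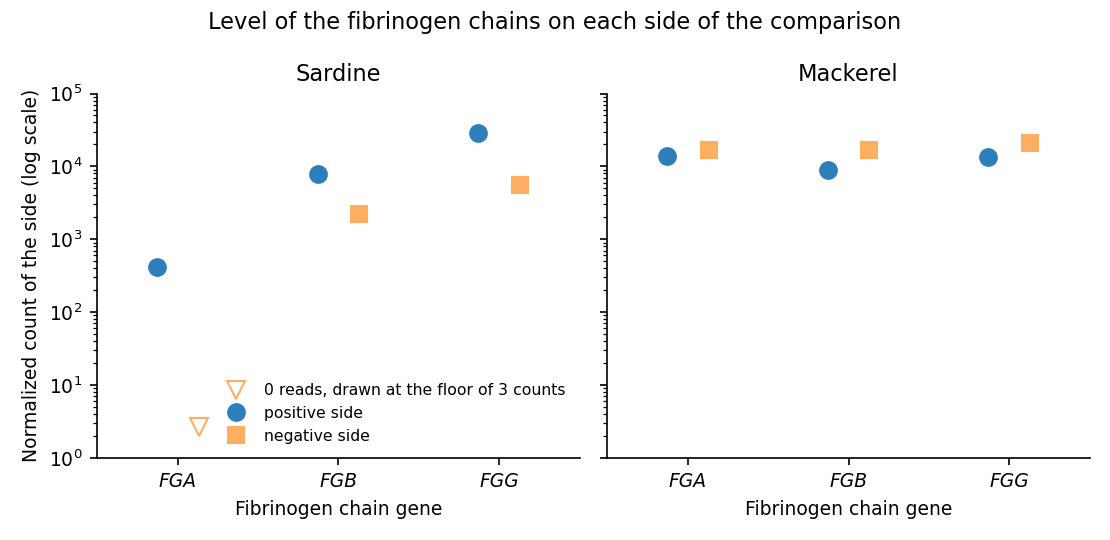
Level of each fibrinogen chain gene on the positive side (circles) and the negative side (squares), in normalized counts on a log axis, for sardine (left) and mackerel (right); each point is 1 side, drawn without an error for want of values per fish. The sardine FGA level was 413 on the positive side, against 0 on the negative side (open triangle, drawn at the floor of 3 counts), while the 6 mackerel levels lay between 9005 and 20882.

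These folds rest on the authors' size factors, under which the summed level of all sardine rows was 215765 on the positive side, against 110984 on the negative side. As a share of all counts of its side, FGG held 13.3% on the positive side, against 5.0% on the negative side, FGB 3.58% and 1.99%, and FGA 0.191% and 0%. The totals of the sides are unlike. Of the predicted records with a mean of at least 100, 92.6% had 0 reads on the negative side and so count only in the positive total. Shares by side over curated records were not worked out. Scaled by these totals, the log2 fold change was 1.42 for FGG and 0.85 for FGB. Scaled by the summed hepatocyte markers instead, it was -0.23 for FGG and -0.80 for FGB, so both chains then lay lower on the positive side. With the hepatocyte rows that had reads on both sides it was 0.21 for FGG and -0.35 for FGB. Prothrombin (F2) alone held 3569 of the 6795 marker counts on the positive side, and 878 of the 1116 on the negative side. AMBP added 1509 on the positive side, against 0 on the negative side. Scaling by these markers is thus in large part a comparison with F2. The sign of the sardine FGG and FGB folds thus depended on the genes they were scaled by. FGA remained higher on the positive side under each of these scalings, with a log2 bound of at least 4.67. Each scaling shifts all folds by the same amount, far less than the FGA bound, so none could have turned its sign.

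In mackerel FGB was called on the negative side, while FGA and FGG were not called. The sides of the tables cannot be matched to each other, since neither table records its numerator. The 1 chain of 3 stands beside 10.8% of all mackerel rows called on the negative side, and 16.7% of those with a mean of at least 100. In the authors' deposited table the SE was between 0.251 and 0.253 for each of the 67 mackerel rows with a mean of at least 1000, the chains included, so it carries no spread particular to a chain.

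FGA had 15441 reads on the positive side, against 15085 on the negative side, which gave levels of 14062 and 16984 after scaling. Its log2 fold change in the authors' deposited table was -0.26 ± 0.25 (SE) with an adjusted p of 0.498, and the interval of -0.75 to 0.23 spans 0. FGB had 9888 reads on the positive side, against 14963 on the negative side, or levels of 9005 and 16847. For FGB the authors' deposited table gave -0.86 ± 0.25 (SE), an adjusted p of 0.00496 and an interval of -1.36 to -0.37. FGG had 14840 reads on the positive side, against 18547 on the negative side, or levels of 13515 and 20882. The authors' deposited table gave FGG -0.60 ± 0.25 (SE) with an adjusted p of 0.0627, and an interval of -1.09 to -0.11 that is not adjusted for the number of rows. Among the chains FGB thus differed most between the sides and FGA least. The intervals of the differences between chains span 0: FGA exceeded FGB by 0.60 ± 0.36 (combined SE; interval -0.10 to 1.30), and FGG exceeded FGB by 0.26 ± 0.36 (interval -0.43 to 0.96). These intervals cannot settle whether the chains differ. Their SEs carry no spread particular to a chain and were combined as if the chains were independent, although they share their libraries.

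The reads themselves can be compared between the sides at counting error, which leaves out the spread between fish. The scaled ratio of positive to negative reads was 0.828 for FGA (95% interval 0.810 to 0.847), 0.535 for FGB (0.521 to 0.548) and 0.647 for FGG (0.633 to 0.661). All 3 chains were called on the negative side by an exact two-sided binomial test with Benjamini-Hochberg adjustment over all rows, with an adjusted p of 3.49e-58 for FGA, the largest of the 3. That test called 2.00% of all rows on the negative side, but 55.2% of the 105 rows with at least 1000 reads, so such a call was usual at this depth. The intervals of the 3 chains do not overlap one another, and the order FGB, FGG, FGA from most to least lowered on the positive side therefore exceeds counting error.

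**Figure D2:**
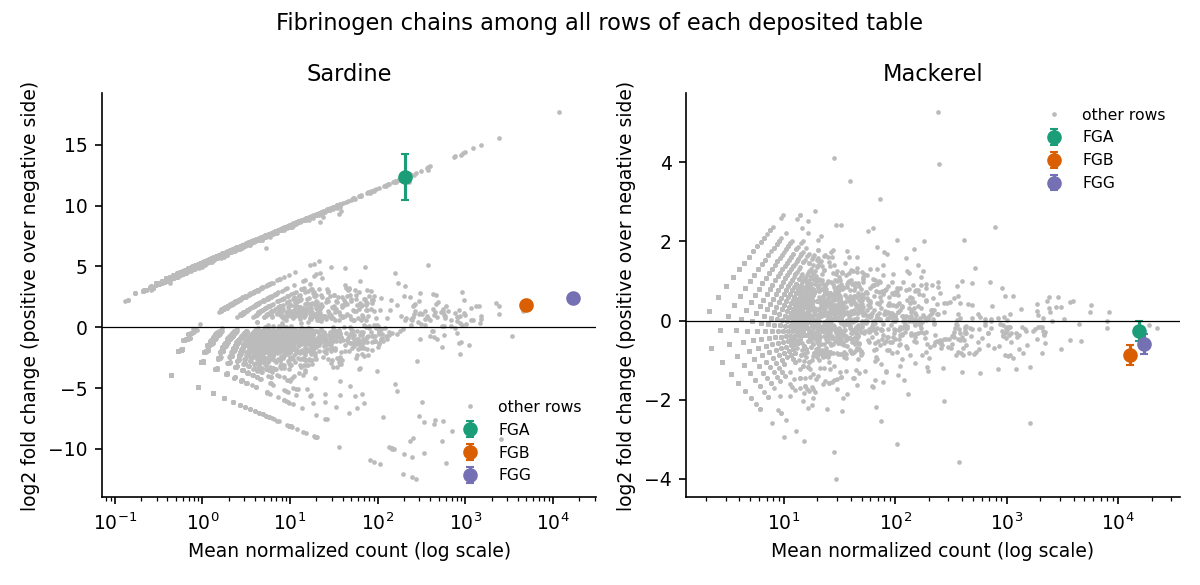
Log2 fold change of the authors' deposited tables (positive over negative side) against mean normalized count on a log axis, with every row in grey and the fibrinogen chains in colour; error bars are the SE. In sardine FGB and FGG lie at 1.81 and 2.38 and FGA lies at 12.36 on the line of rows with 0 negative-side reads, while in mackerel the chains lie between -0.86 and -0.26.

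Fibrinogen was among the most abundant transcripts of both livers. The chains together had a mean normalized count of 22349 in sardine, 13.7% of all counts, and 45653 in mackerel, 12.2%. By side the sum was 17.1% on the positive side, against 6.99% on the negative side in sardine, where the totals of the sides are unlike as stated above. In mackerel it was 10.7% of the reads (exact 95% interval 10.6 to 10.8) on the positive side, against 14.6% (14.5 to 14.7) on the negative side. These intervals cover counting error only and leave out the spread between fish.

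In sardine FGG ranked 1st of 6716 rows by mean normalized count and FGB ranked 3rd, with the muscle gene SYNPO2L between them at 11816. SYNPO2L is a predicted record and, unlike most muscle marker rows, lay on the positive side. The authors' deposited table gave it a fitted log2 fold change of 17.72 ± 1.74 (SE). By the estimate from that value it had, like FGA, no reads on the negative side, so the value is no measure of size. FGB was followed by DMWD at 4591 and the translation factor EEF1A1 at 3450. FGA ranked only 125th, with a mean normalized count of 207 in the authors' deposited table. Its neighbours in the order were the ribosomal protein gene RPL31 above it and SERBP1, at a nearly equal 206, below it. In mackerel the chains held the 3rd, 4th and 5th places of 9191 rows, with FGG at 17200, FGA at 15525 and FGB at 12928. Above them stood FIBCD1, a gene with a fibrinogen-like domain, at 22552 and the haptoglobin-related HPR at 18893. The next row below was LTF at 8328.

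The makeup of the fibrinogen counts differed between the tables. In sardine FGA made up 0.924% of them, FGB 22.2% and FGG 76.8%, and the most abundant chain had 83.1 times the count of the least abundant. In mackerel FGA made up 34.0%, FGB 28.3% and FGG 37.7%, a 1.33-fold range. Set against all counts, FGB was close in both, at 3.04% in sardine and 3.46% in mackerel. FGG held 10.5% in sardine and 4.60% in mackerel, and FGA 0.126% in sardine and 4.15% in mackerel, a 32.8-fold difference in share. The sardine rows carry zebrafish identifiers and the mackerel rows fugu identifiers, so species and reference cannot be told apart. No test between the species was run because values per fish were not at hand.

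The makeup of the counts also differed between the sides within a table. The mackerel intervals below cover counting error only and leave out the spread between fish, and no interval was worked out for sardine. Whether the makeup differs between the groups of fish thus cannot be told. In mackerel FGA made up 38.4% of fibrinogen reads on the positive side (exact interval 38.0 to 38.9) and 31.0% on the negative side (30.6 to 31.5). FGB made up 24.6% (24.2 to 25) on the positive side, against 30.8% (30.4 to 31.2) on the negative side. FGG made up 36.9% (36.5 to 37.4) on the positive side, against 38.2% (37.7 to 38.6) on the negative side. There were thus 0.640 FGB counts per FGA count on the positive side, against 0.992 on the negative side. In sardine FGG made up 77.9% on the positive side, against 71.5% on the negative side, and FGB 20.9% and 28.5%, so that FGG had 3.72 times the count of FGB on the positive side, against 2.51 times on the negative side.

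**Figure D3:**
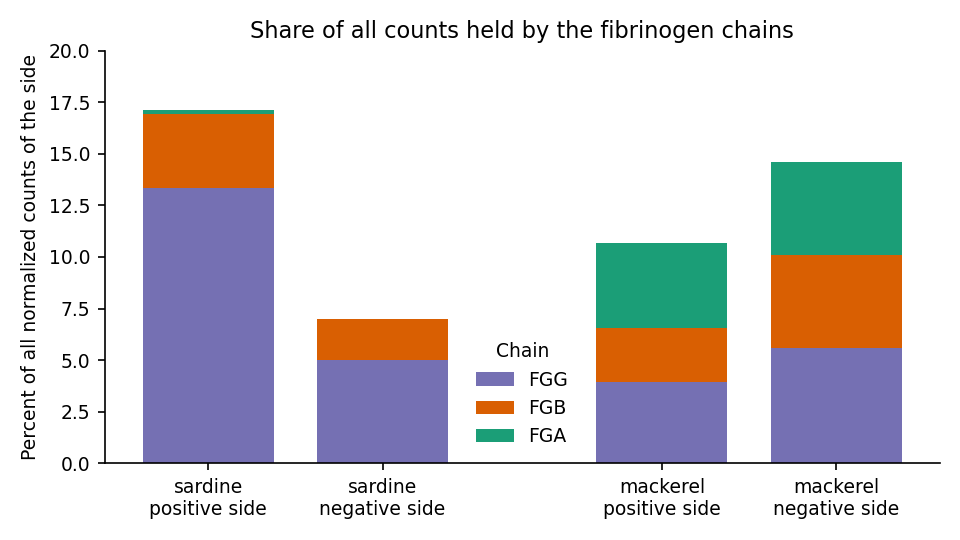
Percent of all normalized counts of a side held by FGG, FGB and FGA, stacked, for the positive and the negative side of each species; there is no error bar because each bar is 1 side. The chains reach 17.1% on the sardine positive and 6.99% on the sardine negative side, and 10.7% on the mackerel positive and 14.6% on the mackerel negative side, with FGA hardly visible in sardine.

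The rows most like each chain were sought by distance in log2 mean normalized count and log2 fold change, over the 2 groups of each table, so likeness here means a similar level on both sides and no more. In sardine PLG, the precursor of the fibrin-cutting enzyme plasmin, and F2, prothrombin, were among the 3 nearest to FGB, at distances of 1.04 and 1.18. DMWD was nearer, at 0.520. The nearest to FGG were FGB at 1.88, DMWD at 2.19 and PLG at 2.90, all of them distant. The nearest to FGA were PDIA3, TMPRSS13 and RPS28, all at 0 on the negative side. In mackerel the chains lay near one another: FGG was the nearest row to FGB, at 0.489, and FGA the nearest to FGG, at 0.370. HPR was nearest to FGA, at 0.317.

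Related genes are given by lists, several of which hold rows that are also hepatocyte markers, with the authors' DESeq2 test for the calls. Counts among curated records, rows with reads on both sides or at other thresholds have no share over all such rows beside them. Whether those counts are unusual thus cannot be told. Of the 6 sardine lists with 0 rows called on the negative side, hepatocyte markers included, 5 also had 0 rows at an unadjusted p under 0.05 there, and the IL-6 signalling list had 1. Genes that make thrombin, the enzyme that acts on fibrinogen, were mostly called on the positive side in sardine. Of 12 rows, 11 were called there, beside 30.5% of all sardine rows and 58.9% of those with a mean of at least 100. On the negative side 0 were called, beside 16.1% of all rows. In the authors' deposited table F2 had a mean of 2224 and a log2 fold change of 2.02 ± 0.11 (SE), and the clotting factors F9 and F10 had 1.47 ± 0.29 and 2.48 ± 0.38. The list's median was 2.61, or 2.15 with the 3 rows at 0 on the negative side set to their bound, beside -0.19 over all rows. In mackerel 4 of 13 rows were called on the positive side, where 14.1% of all rows were, and 2 on the negative side, where 10.8% were. The list's mackerel median was -0.12, beside 0.04 over all rows. There F2 was at 0.50 ± 0.25 (adjusted p 0.118) and the more abundant F9 row at -0.79 ± 0.25 (adjusted p 0.0109), per the authors' deposited table.

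Genes that crosslink or dissolve fibrin were called on both sides. In sardine 3 of 8 rows were called on the positive side, against 3 on the negative side, beside 30.5% and 16.1% of all rows. PLG, with a mean of 2422, was at 1.72 ± 0.22 (SE) and CPB2, which protects fibrin from lysis, at 3.11 ± 0.44 in the authors' deposited table, while the list's median was -1.44, or -1.20 with rows at 0 set to their bound. The rows on the negative side, named after their values were seen, were 2 of TGM2, a tissue transglutaminase, and 1 of ANXA2, a cell-surface receptor of plasminogen. In mackerel 1 of 7 rows was called on each side, close to the 14.1% and 10.8% of all rows called on the positive and negative side. The plasmin inhibitor SERPINF2 was at -1.10 ± 0.23 and the plasminogen activator PLAT at 0.69 ± 0.23 in the authors' deposited table.

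Inhibitors of clotting were called on the positive side in 12 of 14 sardine rows and on the negative side in 0. Over all sardine rows these shares were 30.5% and 16.1%. Among sardine rows with a mean of at least 100, 58.9% were called on the positive side. Of the 14, 10 were at 0 on the negative side, among them protein C (PROC), a predicted record whose positive-side level was at least 281-fold higher. Among curated records 4 rows of the list were called. Of the 4 rows with reads on both sides, 3 were called on the positive side, against 0 on the negative side. Shares over all curated records or all rows with reads on both sides were not worked out. The list's median was 3.07 with rows at 0 set to their bound. In mackerel 1 of 18 rows was called on the positive side, against 7 on the negative side, beside 14.1% and 10.8% of all rows. The median was -0.41. The most abundant row of SERPINA5, an inhibitor of activated protein C, was not called, at -0.31 ± 0.25 (adjusted p 0.383), per the authors' deposited table. The next 2 SERPINA5 rows carry the same fugu gene model and were at -0.87 ± 0.25 and 0.74 ± 0.24 in the authors' deposited table, so how reads were split between them is uncertain.

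Other acute-phase plasma proteins were called on the positive side in 22 of 31 sardine rows and on the negative side in 2. Both of the latter were rows of the ferritin chain gene FTH1, which were named after their values were seen. Over all sardine rows these shares were 30.5% and 16.1%. Among sardine rows with a mean of at least 100, 58.9% were called on the positive side. In the authors' deposited table serum amyloid SAA2 was at 2.94 ± 0.25 (SE), the heme carrier HPX at 1.73 ± 0.60 and the copper carrier CP at 1.78 ± 0.35. The list's median was 2.08, or 1.78 with rows at 0 set to their bound. In mackerel 5 of 36 were called on the positive side, against 9 on the negative side, beside 14.1% and 10.8% of all rows. The median was -0.29. The most abundant mackerel rows were HPX at -0.18 ± 0.25 (adjusted p 0.674) and complement C3 at -0.52 ± 0.25 (adjusted p 0.108), per the authors' deposited table.

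The signalling genes and transcription factors that act on fibrinogen transcription in mammals, not all of them as drivers, included a row more abundant than sardine FGA. The authors' deposited table gave CEBPB, an acute-phase transcription factor, a mean normalized count of 302 and a log2 fold change of 1.20 ± 0.26 (SE). In sardine 7 of 15 rows were called on the positive side, beside 30.5% of all rows, against 0 on the negative side, beside 16.1%. That count was 2 at a threshold of 0.01 and 2 among rows with a mean of at least 10. The list's median of 1.20 became 0.00 once rows at 0 were set to their bound, and was -0.28 over the 9 rows with reads on both sides. In mackerel 1 of 24 rows was called on the positive side, against 6 on the negative side, beside 14.1% and 10.8% of all rows. CEBPB was at -1.15 ± 0.24 in its more abundant row, with a mean of 110, and HNF4A, a hepatocyte transcription factor, was the row called on the positive side, at 1.10 ± 0.23 in the authors' deposited table.

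Genes for ER folding and export, through which the chains are assembled, were called on the positive side in 16 of 19 sardine rows. On the negative side 0 were called. Over all sardine rows these shares were 30.5% and 16.1%. The list's median was 1.73 once the 11 rows at 0 were set to their bound. Among curated records 10 were called. Of the 8 rows with reads on both sides, 6 were called on the positive side, against 0 on the negative side. Shares over all curated records or all rows with reads on both sides were not worked out. The translocon-associated SSR2 was at 0.78 ± 0.31 (adjusted p 0.0345) and the translocon channel gene SEC61A1, not called, at 0.97 ± 0.43 (adjusted p 0.0575), per the authors' deposited table. In mackerel 3 of 30 rows were called on the positive side, against 2 on the negative side, under the shares of all rows (14.1% and 10.8%). The chaperone HSP90B1 was at 0.60 ± 0.25 (adjusted p 0.0627) and the disulfide isomerase PDIA4 at 0.81 ± 0.25 (adjusted p 0.00891), per the authors' deposited table. The chaperone HSPA5 was not called, at 0.37 ± 0.25 (adjusted p 0.290), per the authors' deposited table.

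Plasma carrier genes of hepatocytes, several of which are also hepatocyte markers above, were called on the positive side in 16 of 17 sardine rows. On the negative side 0 were called. Over all sardine rows these shares were 30.5% and 16.1%. The list's median was 2.95 at the bound. Among curated records 8 were called. Of the 7 rows with reads on both sides, 6 were called on the positive side, against 0 on the negative side. Shares over all curated records or all rows with reads on both sides were not worked out. In the authors' deposited table APOA4 was at 2.27 ± 0.22 (SE) and transferrin (TF) at 1.92 ± 0.46. In mackerel 5 of 23 were called on the positive side, against 6 on the negative side, beside 14.1% and 10.8% of all rows. APOA1 was at -0.87 ± 0.25 (adjusted p 0.00459) and AMBP at -0.33 ± 0.25 (adjusted p 0.334), per the authors' deposited table. The sardine folds of FGB and FGG thus lay within the range of the plasma protein genes named above that had reads on both sides. The mackerel hepatocyte markers summed to a level of 8287 on the positive side, against 7762 on the negative side. Of these 16 rows, 4 were called on the positive side, against 3 on the negative side, beside the same shares of all rows. The mackerel muscle markers summed to 26.4 on the positive side, against 52.9 on the negative side, and the other mackerel marker lists to at most 194 on a side.

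Genes that share the fibrinogen-like domain but encode no fibrinogen chain came last among the lists. In sardine 23 of 27 rows were called on the positive side, against 1 on the negative side, beside 30.5% and 16.1% of all rows. However, 23 of the 27 were at 0 on the negative side. Of the 3 rows with reads on both sides, 2 were called on the positive side, against 1 on the negative side, and among curated records 5 rows were called on either side. Shares over all curated records or all rows with reads on both sides were not worked out. Of these 27 rows, 17 carry the symbol MFAP4, an extracellular matrix gene, 16 of them predicted records. On the negative side 16 MFAP4 rows were at 0, and the 1 row with reads there was called on the negative side. The MFAP4 rows together held 3.96% of counts on the positive side, against 0.00558% on the negative side, and the positive-side level of the most abundant was at least 1842-fold higher. Rows that share 1 human symbol can be copies that split reads, so they are not independent. No negative-side read was found for 92.6% of the predicted and 7.45% of the curated sardine records that had a mean of 100 or more. In mackerel 0 of 22 rows were called on the positive side by the authors' DESeq2 test, against 9 on the negative side. Over all mackerel rows these shares were 14.1% and 10.8%. On the positive side 0 rows also stood out at an unadjusted p under 0.05 or by the exact test of reads. The median was -0.65, or -0.50 with rows at 0 set to their bound. Of the 22 rows, 5 carry the symbol FIBCD1, so these rows, too, are not independent. The abundant FIBCD1 row was at -0.18 ± 0.25 (adjusted p 0.676) and the MFAP4 row at -0.81 ± 0.25 (adjusted p 0.00972), per the authors' deposited table.

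**Figure D4:**
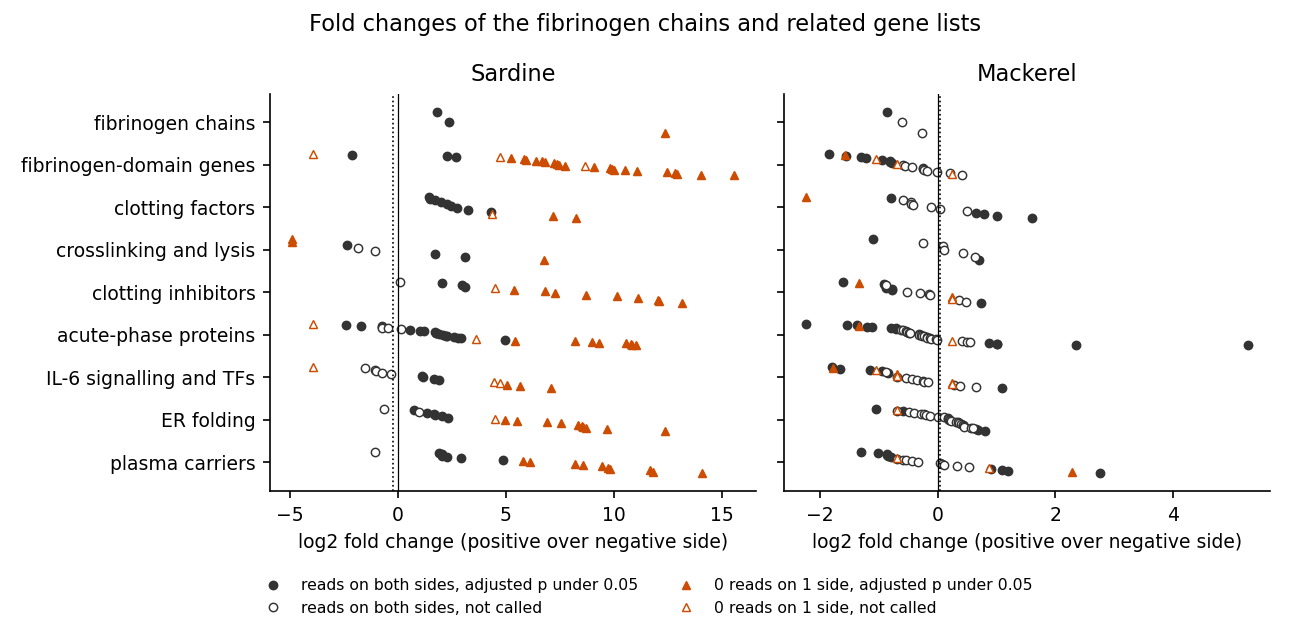
Log2 fold change of the authors' deposited tables (positive over negative side) for every row of the fibrinogen chains and the 8 related lists; circles are rows with reads on both sides, triangles rows with 0 reads on 1 side, whose fitted value is no measure of size, filled symbols have an adjusted p under 0.05, and the dotted line is the median of all rows. Most sardine rows of the lists lie on the positive side, with the crosslinking and lysis genes on both sides, and the mackerel rows lie on both sides of 0.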

How the data were processed

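Livers of 20 fish were sequenced, 5 exposed and 5 control fish per species. Per the submitters' processing notes the authors used CASAVA 1.8, DESeq2 and GRCz10; aligner, counter and filters: not given in the sources used here. Per the file headers, the authors deposited the mean normalized count (a signal averaged over libraries), the log2 fold change and its SE, the Wald statistic (a score) and the raw and adjusted p-value. Rows of the tables were matched by human symbol.

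Whole reads behind the means were recovered (Python 3.11.15, numpy 2.4.6, scipy 1.17.1). All 9191 mackerel means were a whole number times 0.455 for the positive side plus one times 0.563 for the negative side plus 1.66. Each of the 5123 sardine rows whose mean did not exceed 5 was solved by exactly 1 set of whole numbers. There both sides carried equal weight: the deposited fold change differed from that of the recovered parts by a median of -0.02 (SD 0.06, log2, 147 rows). This split was applied to abundant sardine rows, whose libraries could not be solved singly. On simulated tables, with the true steps given, 100% of 8107 mackerel rows and 100% of 4572 singly solved sardine rows were recovered. The fit of the steps was thus not tested, and the simulated sardine means did not exceed 5. The exact test called 23 of 23 simulated mackerel rows changed 4-fold with at least 50 reads, 32 of 179 at any depth and 0 of 7928 unchanged rows. These rows were simulated with counting error only.

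Adjusted p-values are the authors', and those of the exact test are adjusted over all rows. Intervals of shares are exact binomial at 95%. They and the floors cover counting error only, since amplified reads lack molecular identifiers. The labels do not say whether fish were kept in separate tanks, so p-values measure at most the spread between these samples. For a side made of 1 whole number they cannot be taken to measure even that. The sardine p-values were adjusted over at least 12737 rows, more than the 6716 used here.

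The chains, 8 related lists and 6 marker lists were chosen with earlier results of these data known. Named are the 3 most abundant rows of a list, of which some are printed, the 3 rows nearest each chain, and the chains' neighbours in abundance. Alternatives covered the threshold, scaling, denominator, low rows, record type and rows at 0. No sequence or coordinate was used here.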

Additional observations from a re-analysis of the deposited data

How the results depend on the processing

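No paired analysis was possible because the replicate numbers only name samples and the tables hold no values per fish. Leaving out single fish or libraries was not possible for the same reason. Of 36 alternative fold changes, 33 kept their sign and 3 turned: scaled by the summed hepatocyte markers, sardine FGB was -0.80 (-0.35 with rows read on both sides) and FGG -0.23. The 33 are no measure of robustness. The scalings shifted the sardine FGA bound by far less than its size, and shifted the mackerel folds little. Relative to the median of all rows, which was -0.19 in sardine, FGG was 2.57 and FGB 2.00, and relative to rows with a mean of at least 100, whose median was 0.84, they were 1.53 and 0.96. The 3 chains were called in sardine at thresholds of 0.01 and 0.1, and in mackerel 2 rather than 1 were called at 0.1. The shares of all rows called at those thresholds were not worked out, so whether these counts are unusual cannot be told.

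The sardine share of 13.7% was 17.0% without the 10 most abundant rows (the chains kept), 14.7% over rows with an adjusted p, 16.8% over curated records, 17.1% for the positive and 6.99% for the negative side. The mackerel share of 12.2% was 15.4% without the 10 most abundant rows, 12.4% over rows with an adjusted p, 10.7% for the positive and 14.6% for the negative side.

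Counts of called rows in the lists fell in 21 of 48 alternatives by over 1.5 times. In sardine, rows with a mean of at least 10 left 13 of 24 fibrinogen-domain, 6 of 11 clotting factor, 2 of 6 crosslinking and lysis and 2 of 7 IL-6 signalling rows. Curated records left 5 fibrinogen-domain, 4 of 12 inhibitor, 10 of 16 ER folding and 8 of 16 carrier rows. Rows with reads on both sides, an alternative chosen after seeing the data as were the scalings by hepatocyte markers and the shares by side, left 3 fibrinogen-domain, 3 crosslinking and lysis, 3 inhibitor, 4 IL-6 signalling, 6 ER folding and 6 carrier rows. A threshold of 0.01 left 3 crosslinking and lysis and 2 IL-6 signalling rows. In mackerel it left 1 of 2 crosslinking and lysis, 5 of 8 inhibitor, 8 of 14 acute-phase and 2 of 5 ER folding rows, and a mean of at least 10 left 4 of 7 IL-6 signalling rows. In each case fewer rows were counted or the threshold was stricter by construction, and the shares over all rows of the same kind were not worked out. The exact test called all 3 mackerel chains with either scaling and with adjustment over rows with at least 10 reads. Depth is 1 limit on sardine FGA: a count of 0 on the negative side allows up to 3 counts. That floor covers counting error only, and why sardine rows were at 0 on the negative side was not tested.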
